A study of Mus musculus with 2 samples.

Results

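Lipogenesis turns acetyl-CoA into fatty acids and then shapes them by elongation and desaturation, and 10 genes of this pathway are described here across 2 microarrays of mouse intestinal epithelial cells. They are Srebf1, Acly, Acaca, Fasn, Elovl6, Elovl5, Scd1, Scd2, Fads1 and Fads2, taken by gene name from the non-control probes of the array, with the probes of a gene kept apart. The array holds 15 such probes, 7 genes having 1 probe, 2 genes having 2 and Acaca having 4, among 55678 non-control probes with a usable spot on both arrays. Each of the 15 probes has 1 spot per array, and none of these spots was saturated or marked as an outlier.

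Wild-type male mice gave the intestinal segments in both groups, and RNA came from the epithelial cells. One set of segments was kept for 2 h with 0.5 µM cholic acid (CA), a primary bile acid, and the other with a vehicle of 0.05% DMSO and 0.25% ethanol. Whether that solvent also went with the cholic acid is not stated. The study looked for genes that bile acids may control through PPARα, a fatty acid-sensing nuclear receptor. There was 1 array per condition, and the labels give neither the number or age of the mice nor the position of a segment along the gut, so treatment, segment and animal cannot be told apart. No test between conditions was possible, and differences are sizes without a replicate check.

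SREBP-1, the product of Srebf1, is a membrane-bound transcription factor that is cut and released to switch on lipogenic genes, and its SREBP-1c form is induced by insulin and by the oxysterol receptor LXR. Acly makes cytosolic acetyl-CoA from citrate, Acaca carboxylates it to malonyl-CoA, and Fasn builds palmitate, which Elovl6 lengthens to stearate and the Scd enzymes convert to monounsaturated acids. Fads2 and Fads1 act in turn, with Elovl5 between them, to make long polyunsaturated fatty acids from dietary precursors. In enterocytes these routes feed membranes and the lipid packed into chylomicrons.

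The probes behind the largest differences are shown first, as the last 30 bases of each 60-base probe, because each of these 4 genes rests on a single probe. They are given 5′ to 3′ in lower case from the deposited files, and their mm9 positions follow.
Srebf1: aacaatcgtggtatctttattgactttttt
Scd2: taagtcctgcacatttttgtagtaactgtc
Scd1: atctcaacagtgtgaattaagtgtccatag
Fads1: aacctgtatgtccactttcatgctcttgtt
The whole Srebf1 probe lies at chr11:60012664-60012723 on the minus strand and carries the accession NM_011480. Those of Scd2 (plus strand, chr19:44381024-44381083) and Scd1 (minus strand, chr19:44469387-44469446) sit in the Scd gene cluster, and that of Fads1 lies at chr19:10270530-10270589 on the plus strand. The Scd1 and Scd2 probes share no run of bases longer than 6, and neither do the Fads1 probe and the Fads2 probe A_66_P130115. Exons and UTRs were not assigned to the probes.

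Among the members measured on both arrays, Scd2 and Srebf1 were lower with cholic acid and Fads1 was higher, while 7 probes of Acly, Acaca, Elovl6, Elovl5 and Fads2 stayed within 2-fold. A probe counts as measured where Agilent's flag "well above background" is set on both arrays, which held for 10 of the 15 member probes and 8 of the 10 genes. The scale used for differences is the log2 signal minus each array's 75th percentile over measured probes, which fell at a signal of 1060 for vehicle and 741 for cholic acid. Of the 10 measured member probes, 1 was at least 2-fold higher, against 7.08% of the 22613 probes measured on both arrays. A further 2 were at least 2-fold lower, against 1.94% of all measured probes. The median difference of the members was 0.19 and that of all measured probes 0.13, with 5 member probes above the latter and 5 below it.

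**Figure D1:**
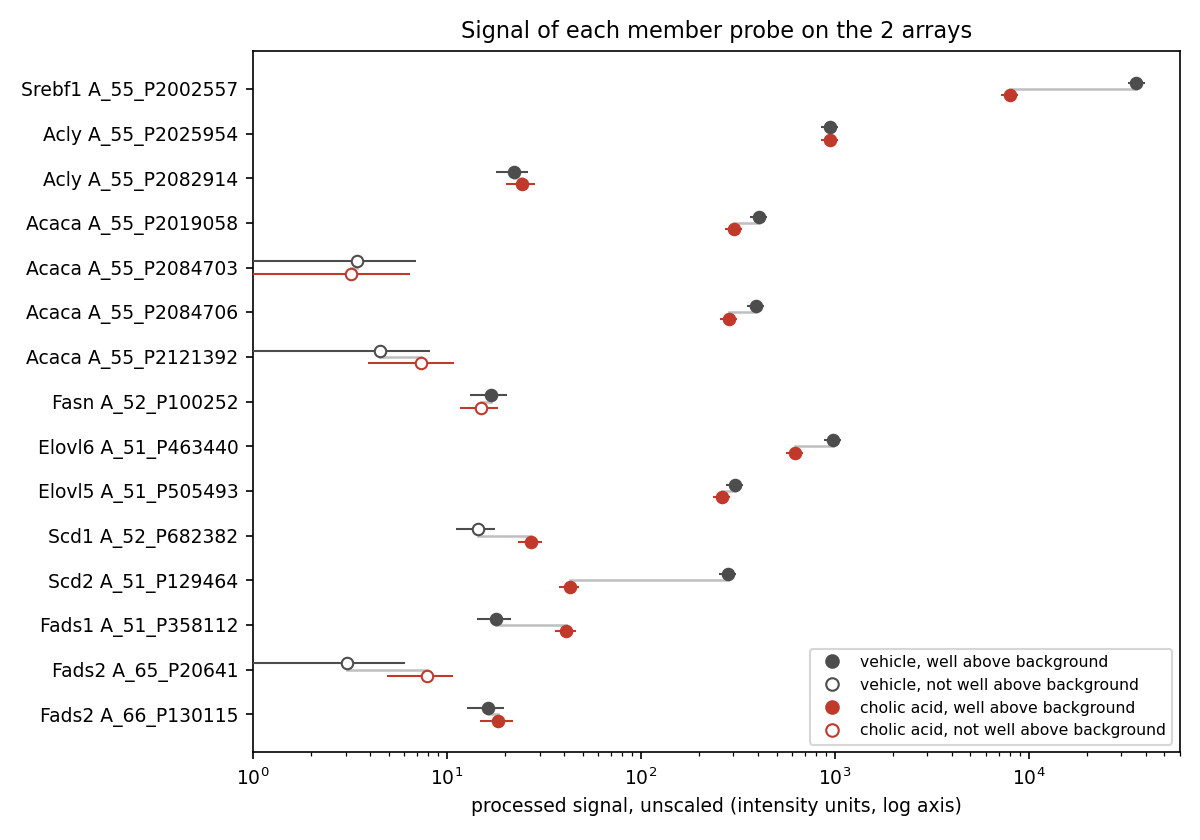
Unscaled processed signal (intensity units, log axis) of each of the 15 member probes with vehicle (grey) and cholic acid (red); filled points are well above background, open points are not, and bars are ± the error that Feature Extraction gives for the spot, cut at the left edge of the axis where they pass it. Srebf1 and Scd2 have the widest gaps, toward lower signal with cholic acid, and Scd1, Fads1 and Fads2 A_65_P20641 lie to the right with cholic acid.

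Srebf1 had an unscaled signal of 35900 ± 3590 with vehicle and 7950 ± 795 with cholic acid, where ± is the error that Agilent's model gives for 1 spot and not a spread between samples. The vehicle array is the high one, and the spot errors do not meet. After scaling, Srebf1 was 3.16-fold lower with cholic acid (log2 difference -1.66, spot error 0.20). Only 0.327% of all measured probes lay at or below this difference. Among the brightest 5653 of the measured probes, where Srebf1 belongs, 1.89% were at least 2-fold lower and 3.18% at least 2-fold higher. Srebf1 was at least 2-fold lower under each of the 8 alternatives of scaling, background correction or signal column that can move a member's difference. Its log2 difference over these and the setting used here ran from -2.55 to -1.66.

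The RefSeq promoter table holds 3 windows for Srebf1, and 1 of them is printed because LXR response elements are a known feature of the SREBP-1c promoter. Which start the RNA on these arrays came from was not measured. The sequence is the 250 bases upstream of that start in the RefSeq table of GRCm38.p6, minus strand, chr11:60210472-60210721. Capitals mark matches to an LXR element form, searched on both strands and chosen with the sequence in view. It leaves free the 2 bases at which GTTACTGGCGGTC and GTTACTAGCGGGC differ.
Srebf1 promoter: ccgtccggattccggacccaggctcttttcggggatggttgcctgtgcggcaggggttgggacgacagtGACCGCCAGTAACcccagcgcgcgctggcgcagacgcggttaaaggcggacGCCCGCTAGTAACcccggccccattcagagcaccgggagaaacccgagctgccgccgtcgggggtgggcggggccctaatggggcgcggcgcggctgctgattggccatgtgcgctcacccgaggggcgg
GTTACTGGCGGTC lies from 169 to 181 bases upstream of the start and GTTACTAGCGGGC from 118 to 130, both on the opposite strand to the one printed. Of 32851 promoter windows of the same length, 3 (0.00913%) held the form at all, this one among them. Windows were at hand for 7 of the member genes, 9 windows in all, and no other member window held it. Because the form was built from the 2 copies printed here, its presence in this window was fixed in advance. These counts are therefore no test of LXR. The form TCACNCCAC of the sterol regulatory element, on both strands, was in none of the 9 member windows and in 1.05% of all windows. These matches describe letters in the genome and were not measured on the arrays.

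Scd2 and Scd1, which both place the double bond in stearate to make oleate, lay on opposite sides. Scd2 had a signal of 281 ± 28.3 with vehicle and 43.0 ± 5.19 with cholic acid. It was 4.57-fold lower after scaling (log2 difference -2.19, spot error 0.23), with 0.0973% of measured probes at or below it, and at least 2-fold lower under each of the 8 alternatives (-3.08 to -1.31). Scd1 had a signal of 14.4 ± 3.27 with vehicle, just under the lowest signal of 14.6 that was well above background on that array, and 27.1 ± 3.86 with cholic acid. Because only the cholic acid array measured Scd1, its difference is given as a bound, 2.66-fold higher, computed against that lowest signal. It takes no account of the spot errors, and the unscaled ratio was 1.88. The bound was under 2-fold with quantile normalization (1.96), the authors' processed values (1.95), normexp (1.63) and scaling on the spike-ins (1.43).

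Their closest relatives are given here after their values were seen. Of the 3 probes of Scd3, A_55_P2052759 was measured on both arrays, at 153 with vehicle and 170 with cholic acid, a log2 difference of 0.67 that is within 2-fold. The single Scd4 probe missed the background flag with vehicle (9.73) and with cholic acid (4.43). Among the Scd genes with a usable probe, a 2-fold difference was seen downward for Scd2. For Scd1 there was an upward bound alone, which fell under 2-fold in the settings named above.

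Fads1, which introduces the final double bond in the making of arachidonate, had a signal of 17.8 ± 3.48 with vehicle and 41.1 ± 4.97 with cholic acid. It was 3.30-fold higher after scaling (log2 difference 1.72, spot error 0.33), and 1.51% of measured probes lay at or above it. The probe is dim. Among the dimmest 5654 of the measured probes 11.4% were at least 2-fold higher and 1.26% at least 2-fold lower. For 42 of those dim probes, printed at least 5 times on an array, single spots gave log2 differences with a median SD of 0.32 and a highest SD of 0.90. Fads1 was higher in all 8 alternatives but under 2-fold in 2 of them, with 0.83 for scaling on the spike-ins and 0.85 with normexp.

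Fads2, the first desaturase of that route, had 1 measured probe, A_66_P130115, with signals of 16.2 ± 3.57 and 18.3 ± 3.48. Its log2 difference was 0.69 (spot error 0.42), or -0.20 with scaling on the spike-ins, and the unscaled signals overlap within their errors. The other Fads2 probe, A_65_P20641, which lies 25469 bases away in mm9, missed the background flag on both arrays (3.06 and 7.84). Fads3, a relative of less settled function, was at 15.9 and 21.7 at A_51_P464029 with a difference of 0.97, also chosen after its value was seen. The other Fads3 probe, A_55_P1976097, missed the background flag on both arrays (3.48 and 8.09). Elovl5, the elongase between the desaturation steps, had signals of 305 ± 30.7 and 261 ± 26.2 and a difference of 0.29 (1.22-fold), or -0.60 with scaling on the spike-ins. Of the members of the polyunsaturated route, Fads1 alone passed 2-fold in these units.

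**Figure D2:**
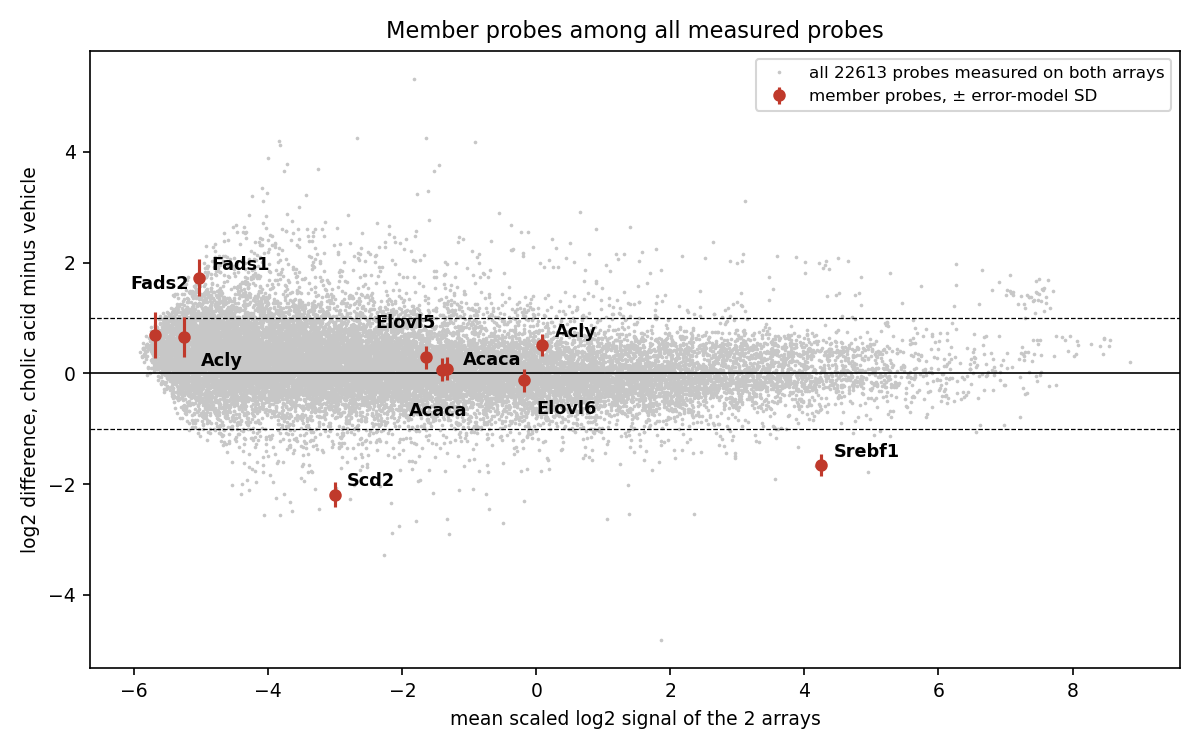
Log2 difference (cholic acid minus vehicle) against the mean scaled log2 signal for the 22613 probes measured on both arrays (grey) and the 10 measured member probes (red, ± spot error); dashed lines mark 2-fold. Srebf1 lies at -1.66 among bright probes, Scd2 at -2.19, and Fads1 at 1.72 among dim probes, where the grey cloud is wider.

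The enzymes that make palmitate and stearate did not pass 2-fold. Acly had signals of 940 ± 94.1 and 938 ± 93.9 at its probe A_55_P2025954 and of 22.1 ± 4.18 and 24.3 ± 4.11 at A_55_P2082914. The raw signals hardly differ, and the differences of 0.51 and 0.65 come from the scaling, which raises the cholic acid array. With scaling on the spike-ins they were -0.38 and -0.24. Acaca had signals of 407 ± 40.9 and 301 ± 30.2 at A_55_P2019058, and of 390 ± 39.1 and 285 ± 28.7 at A_55_P2084706. Both differences were near 0 (0.08 and 0.06), and they were at or below 0 under some scalings. Elovl6 had signals of 972 ± 97.3 and 622 ± 62.2 and a difference of -0.13 (1.09-fold lower), which passed 2-fold downward with scaling on the spike-ins alone (-1.02). Fasn, the synthase itself, had signals of 16.8 ± 3.66 with vehicle and 15.0 ± 3.39 with cholic acid. It was well above background on the vehicle array alone, and no fold is given because the bound is under 1 in the scaling used here (0.78). The bound was above 1, toward lower signal with cholic acid, with scaling on the spike-ins (1.45), quantile normalization (1.09), the authors' processed values (1.08) and loess (1.06). It reached 2-fold in no setting.

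The probes of Acly and Acaca are printed because they show what the agreement between probes rests on. Capitals mark the polyadenylation signal AATAAA, searched on the printed strand, which 10.1% of non-control probes hold and which marks the end of a transcript. The first 3 are the last 30 bases of the probe and the others are whole probes.
Acaca A_55_P2019058: tgttgaAATAAAcctccacatttgtagaag
Acaca A_55_P2084706: gttgaAATAAAcctccacatttgtaaaaaa
Acly A_55_P2025954: tcatgtttgctttaAATAAActagatagta
Acaca A_55_P2084703: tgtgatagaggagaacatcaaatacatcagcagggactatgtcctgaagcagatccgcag
Acaca A_55_P2121392: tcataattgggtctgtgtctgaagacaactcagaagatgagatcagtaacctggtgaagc
Acly A_55_P2082914: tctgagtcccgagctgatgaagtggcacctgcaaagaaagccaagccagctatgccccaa
The first pair of Acaca probes overlap, at chr11:84215093-84215152 and chr11:84215094-84215153 in mm9, and differ at 2 of 59 shared positions. They read the same stretch of RNA and count as 1 observation of Acaca, not 2. The other Acaca probes, 3455 and 206072 bases upstream of the first, have no AATAAA. Both missed the background flag on both arrays, with signals of 3.44 and 3.20 for A_55_P2084703 and of 4.50 and 7.37 for A_55_P2121392. The median signal of the 308 negative control spots was 3.33 with vehicle and 3.10 with cholic acid. The 2 Acly probes lie 27844 bases apart and do not overlap. Their differences had the same sign after scaling, which comes from the scaling itself. Unscaled, they went from 940 to 938 and from 22.1 to 24.3, within the spot errors.

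Of the enzyme genes measured on both arrays, Scd2 was lower along with Srebf1 (-2.19 and -1.66), Acly, Acaca, Elovl6, Elovl5 and Fads2 were within 2-fold, and Fads1 was higher. SREBP-1 activity is set by protein cleavage as well as by the amount of RNA, and protein was not measured.

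**Figure D3:**
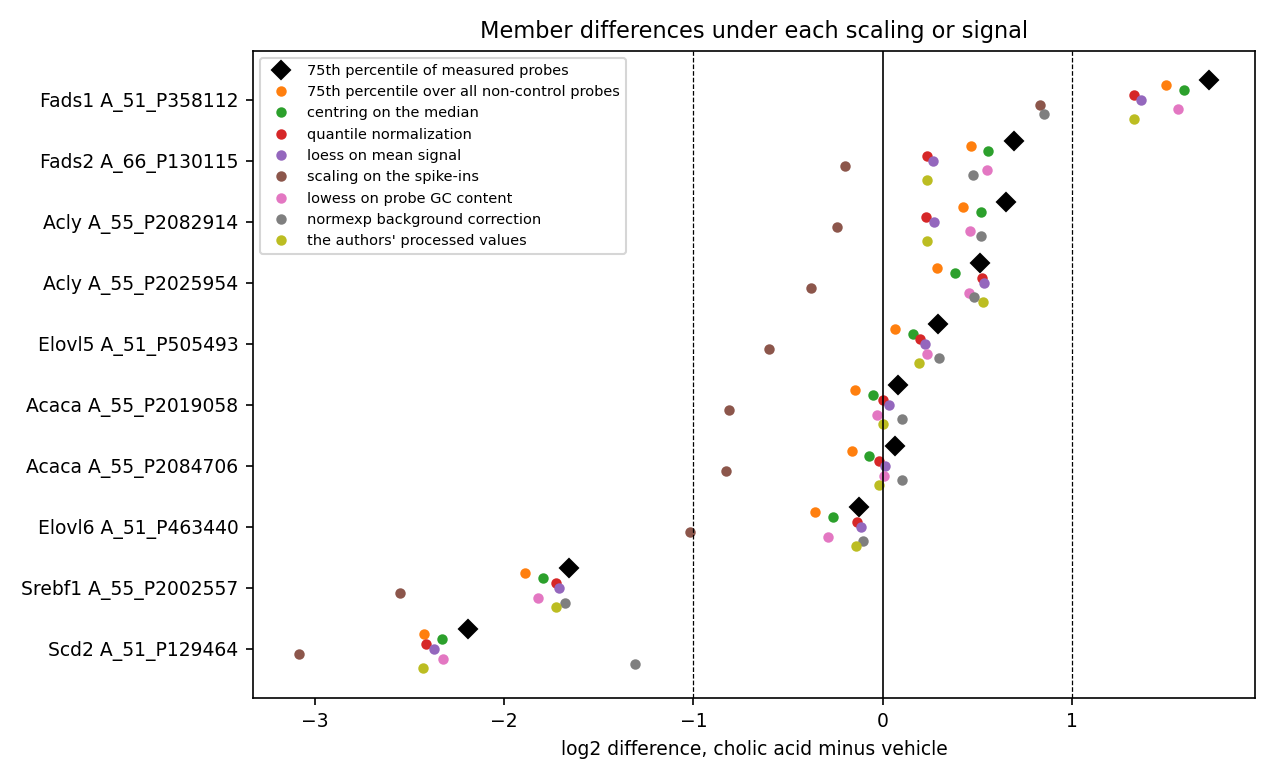
Log2 difference (cholic acid minus vehicle) of the 10 measured member probes with the scaling used here (black diamonds) and with 8 other scalings, corrections or signals (coloured points); dashed lines mark 2-fold. Srebf1 and Scd2 lie beyond 2-fold on the low side in all 9. Acly, Fads2, Elovl5 and Acaca lie below 0 with scaling on the spike-ins, and Acaca also crosses 0 under other scalings.

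In the rest of the pathway, 2 of 77 measured probes were at least 2-fold lower and 0 at least 2-fold higher, shares of 2.60% and 0% beside the 1.94% and 7.08% of all measured probes. The 80 symbols, in 8 lists, gave 65 measured genes with a median difference of -0.17, and lists were described by counts alone. Abcg8, an LXR-induced sterol exporter, was 2.05-fold lower (signals of 449 and 153). Cyb5r3, the reductase that passes electrons to cytochrome b5 for the desaturases, was 2.05-fold lower at its probe A_52_P339742 (407 and 139), but its other probe differed by -0.45. Of the 8 measured probes of LXR targets other than members, 6 were below 0 and 2 above, with a median of -0.41 beside 0.13 for all measured probes. Enterocyte markers were alike, with 8 of 11 probes below 0 and a median of -0.33. A part of LXR was not tested. The LXR genes Nr1h3 and Nr1h2 were within 2-fold, with 0.39 and 0.27 for the probes of Nr1h3 and -0.10 for Nr1h2.

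In the list of SREBP processing, LXR and ChREBP, 13 probes were measured with a median of -0.10 and none passed 2-fold. Of the 13, 6 were above 0 and 7 below. Insig1, which holds SREBPs in the endoplasmic reticulum, was at -0.63, and its relative Insig2 was at -0.63 and -0.26. Both were named after their values were seen. Sterol targets of SREBP2 had a median of 0.05 over 11 probes, with 6 above 0 and 5 below. The lists of acetyl-CoA, citrate and NADPH supply (median -0.03, 11 probes), of carboxylation (-0.23, 7 probes), of other elongases (-0.09, 9 probes) and of glycerolipid acylation (-0.23, 9 probes) also held no probe past 2-fold. The list of other desaturases and their electron donors, which holds Cyb5r3, had a median of -0.31 over 9 probes, with 7 below 0 and 1 at least 2-fold lower. No difference between the members and these lists was tested.

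**Figure D4:**
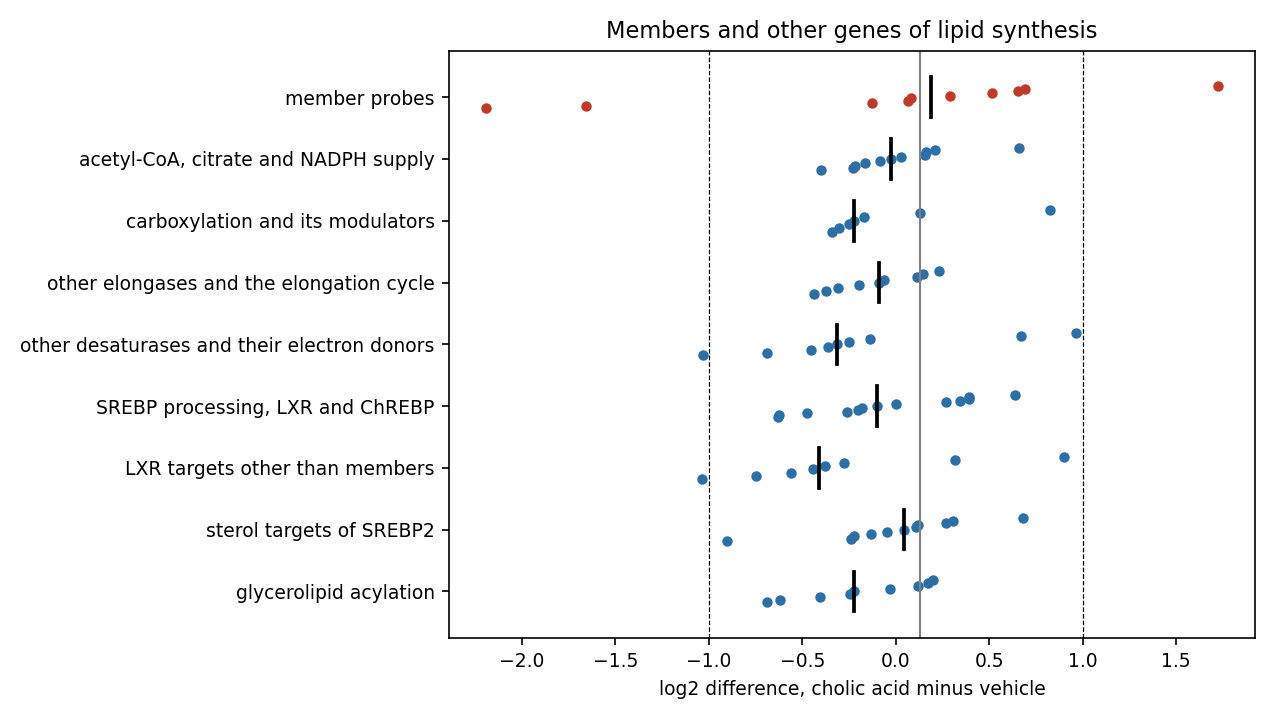
Log2 difference (cholic acid minus vehicle) of each probe measured on both arrays, for the members (red) and for 8 lists of other lipid synthesis genes (blue); black ticks are list medians, the grey line is the median of all measured probes (0.13) and dashed lines mark 2-fold. Scd2 and Srebf1 lie farther to the left than any listed gene.

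Markers were measured beside these results. All 11 probes of 10 enterocyte markers were well above background, with signals from 686 to 325000 for vehicle and from 712 to 346000 for cholic acid, so the labelled cell type was present on both. Their median difference was -0.33, with 8 of 11 below 0. Some markers of gut position differed too. The distal genes Fabp6 and Slc10a2 were 39.9-fold and 5.16-fold higher with cholic acid, while Cubn was 2.16-fold lower at 1 of its 2 probes. Among proximal genes, Onecut2 (4.92-fold) and Apoa4 (3.45-fold) were lower and both probes of S100g were higher (6.38-fold and 5.87-fold). The distal gene Pyy (0.74) and the proximal genes Gata4 (-0.12) and Lct (-0.44) were within 2-fold. Neither the distal gene Fgf15 nor the proximal gene Cybrd1 had a probe measured on both arrays. All 9 measured T cell probes were above 0, with 5 at least 2-fold higher and a summed scaled signal of 12.7 with vehicle and 25.7 with cholic acid. All 5 measured B and plasma cell probes were above 0, with 3 at least 2-fold higher, and their summed scaled signal was 3.17 and 4.35. Of the adipocyte genes, which matter here because fat cells are rich in Scd1, the defining markers Adipoq (3.61 and 3.37), Lep, Plin1, Cfd and Retn were not well above background. Of 10 adipocyte probes 3 were measured, with 1 of the 2 Cidec probes 2.09-fold lower and a summed scaled signal of 10.004 with vehicle and 6.60 with cholic acid. That sum is mostly Cidec (9790 and 784 with vehicle), and Fabp4, the other measured adipocyte gene, was at 0.28 from signals of 30.1 and 25.6. All 4 measured smooth muscle probes and all 4 measured fibroblast probes were above 0, with 1 of each at least 2-fold higher. These were Cnn1, from dim signals of 15.8 and 36.9, and Dcn (67.0 and 142). Beside these marker counts, all measured probes had a median of 0.13, with 7.08% at least 2-fold higher and 1.94% at least 2-fold lower. In the dimmest 5654 of them 11.4% were at least 2-fold higher. Of 6 measured myeloid probes Itgax was 2.09-fold higher, and Lyz2, measured with cholic acid alone, was at least 2.74-fold higher. Of 3 measured pancreatic acinar probes 1 of the 2 for Clps was 2.47-fold lower and the other was at -0.88, while Cela1 was at 0.98. Pnlip, measured with vehicle alone, had a bound of 2.69-fold lower. The part of gut position and of these other cells in the members' differences was not tested, and in tissue of mixed cells fewer cells of a type and less RNA per cell cannot be told apart.

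The scaling sets how many probes lie on each side. Higher probes made up 78.5% of all 2-fold calls in the scaling used here. Their share was 50.3% where the percentile came from every non-control probe, which moved the median of measured probes by -0.23. Median centring gave 63.1% and moved it by -0.13, loess 59.9% and -0.14, and the GC correction 63.4% and -0.14. Quantile normalization and the authors' deposited processed values both gave 54.3% and -0.16. The spike-ins gave 3.37% and -0.89, and normexp moved the median by 0.11. Relative to the median of all probes in the same setting, Srebf1 lay from -2.07 to -1.69, Scd2 from -2.60 to -1.55 and Fads1 from 0.61 to 1.60.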

How the data were processed

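The deposited scanner files hold intensity values per spot from Agilent Feature Extraction (version 10.7.1.1 per the file headers, 9.5.1.1 per the submitters' processing notes) for array design 028005 with mm9 positions. The authors' processed signal is already corrected for background, and deposited flag columns mark poor spots. The authors also deposited processed intensities for 55681 probes, whose medians were 10.09 on both arrays. They are on a linear scale: across probes, their log2 and that of the scanner signal had r = 0.9999 (vehicle) and 0.9998 (cholic acid). The method behind these values is not given in the sources used here. Once sorted, the 2 arrays differ by at most 0.346%, as quantile normalization would leave them. Srebf1 was at -1.72 and Fads1 at 1.33 both in these values and with quantile normalization here. These 2 alternatives are therefore not separate checks.

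Flagged spots (non-uniform, or outliers of their population) were left out (124 with vehicle, 119 with cholic acid). A probe's value is the mean log2 signal of its spots. Of 55678 probes, 24202 were well above background with vehicle and 24448 with cholic acid. Since under 50% of probes passed on both, each array's 75th percentile was taken over the 22613 that did, and subtracted. With 1 array per group no test was run, and the number of arrays limits the precision. Calls are by 2-fold size. A probe measured on 1 array has a bound, its scaled signal over the higher of the dim spot's own signal and the lowest signal well above background there. The bound takes no account of spot errors, and some spots without the flag were brighter than that lowest signal.

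Named are all 10 members and listed pathway genes at least 2-fold apart. Others are named as examples after their values were seen. The members, lists and alternatives were chosen with earlier results of these data known. The alternatives are 6 scalings, normexp (offset 50, limma 3.58.1), the authors' values, 3 filters, outlier spots kept and limits of 1.5-fold and 3-fold. The lowess fits (span 0.3, statsmodels 0.14.6) were run on measured probes. The scaling code was checked on simulated data.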

Additional observations from a re-analysis of the deposited data

How the results depend on the processing

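The count of member probes at least 2-fold lower was 2 (Scd2 and Srebf1) in the main setting, beside 1.94% of all measured probes. It was 3 with scaling on the spike-ins, which adds Elovl6 and puts 31.2% of all measured probes at least 2-fold lower. In the other alternatives it was 2. The share of all probes there was 0.385% with the 3-fold limit and 7.23% with the 1.5-fold limit. At the 2-fold limit it ran from 0.796% with normexp to 3.91% with the percentile over all non-control probes. The count at least 2-fold higher was 1 in the main setting (7.08% of all measured probes). It was 0 with scaling on the spike-ins and with normexp (1.09% and 2.68% of all probes in these settings), 2 with probes well above background on at least 1 array (11.9%), 3 with a 1.5-fold limit (19.4%), and 4 with the positive and significant flag (13.97%) and with no filter (14.5%). The median member difference, 0.19, became -0.042 with the percentile over all non-control probes, -0.71 with scaling on the spike-ins, 0.43 with the positive and significant flag and 0.41 with no filter. The 3 filters and the outlier spots cannot move a member's own difference. Of 80 pairs of a measured member probe and one of the other 8 alternatives, 65 kept their sign. Of the 15 others, 6 fell under scaling on the spike-ins and 11 were Acaca. The 7 spike-in probes differed by 0.38 before scaling, in a direction opposite to the 75th percentile. The cause was not tested. No paired analysis was possible because there is 1 array per group, and no replicate could be left out. Dim signal limits Fads1, Fads2, Scd1, Fasn and 1 Acly probe.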

Other observations

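Probes of one gene could part in the neighbouring lists, and these values were chosen after they were seen. The 2 probes of Mlxipl, the gene of the glucose-responsive lipogenic factor ChREBP, went opposite ways, at 0.64 (signals of 709 with vehicle and 772 with cholic acid) for A_55_P2045158 and at -0.48 (3860 and 1940) for A_55_P2119957. Mbtps1, the protease that makes the first cut in SREBPs, was at -0.20 at A_55_P2047325. Its probe A_52_P406482 was well above background with vehicle alone, at 44.8 against 13.6, a bound of 2.30-fold lower with cholic acid. Acacb, the mitochondrial carboxylase, was at 0.83 from dim signals of 22.2 and 27.5. Pltp, an LXR target that transfers phospholipids, was at 0.90 from signals of 41.5 and 54.1, against the direction of most LXR targets listed.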
